A study of Mus musculus with 23 samples.

Results

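The genes described here are 41 genes of the lysosome, listed by symbol for the role of their products. They comprise 13 proteases, 7 glycosidases, 6 membrane proteins including 1 channel, 7 genes of lipid handling and enzyme activation, 5 genes of the proton pump, and the 3 TFE transcription factors Tfeb, Tfe3 and Mitf. All 41 were listed among the 22524 genes of the table that holds day-7 spleen and marrow libraries, and among the 25700 genes of the table that holds Spic_KO and adult libraries. Tests took in genes that reached 1 in 2 or more libraries, which kept 41 of the 41 in the first table and 40 in the other, where Atp6v0d2 was listed at 0 in all 11 libraries.

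Lysosomes are acidic compartments in which proteases (cathepsins), glycosidases and lipases break down material that a cell has engulfed or recycled. A membrane pump, the V-ATPase, drives protons into them, and TFEB, TFE3 and MITF are known to switch on many lysosomal genes through a short DNA element called CLEAR. Red pulp macrophages of the spleen digest aged red blood cells, and macrophages of erythroblastic islands in the marrow engulf the nuclei that erythroblasts expel, so both depend on this compartment.

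Each library was made from the messenger RNA of 1000 macrophages sorted from C57BL/6 mice, and the study asked what the nuclear receptor PPARγ does in these cells. In 7-day-old pups, red pulp macrophages of the spleen (RPM_d7) and bone marrow macrophages (BMM_d7) were each taken from vavCre and from WT animals, with 3 libraries a group. Further spleen groups were RPM_d7_Spic_KO (day 7, 2 libraries) with its control RPM_d7_Spic_WT (3 libraries), and RPM_TAM_CreERT2 (adult, 4 libraries) with its control RPM_TAM_WT (adult, 2 libraries). In vavCre, regulatory elements of the Vav gene drive Cre recombinase in blood-forming cells, and CreERT2 is a Cre that acts only in the presence of tamoxifen. The labels name neither the floxed gene nor the driver of CreERT2, do not spell out TAM, and do not say whether replicates are separate animals, so p-values measure the spread between libraries. The series text calls the sorted mutant cells the few that remained, which limits vavCre and CreERT2 libraries to cells that persisted.

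Recovered reads per library ran from 4262486 to 21744211 in the first table and from 692904 to 6289360 in the other, with the lowest depth in RPM_TAM_CreERT2 replicate 2. Macrophage marker genes (10 of 10) had reads in each of the 8 groups. Pparg was at 4002, 2496 and 2613 in splenic vavCre libraries, against 1691, 1550 and 2124 in splenic WT libraries. In marrow it was at 2972, 2088 and 1813 in vavCre libraries and 1703, 1601 and 1605 in WT libraries. Adult CreERT2 libraries had 261, 182, 251 and 225, and adult WT libraries 92.3 and 168. Each vavCre or CreERT2 library was thus above each of its WT libraries. A gene-level value, which does not resolve a deleted exon, shows no loss in these groups. Spic was at 931 and 1236 in the libraries labelled Spic_KO and 3110, 1993 and 2203 in Spic_WT libraries, with many reads left, and Pparg was at 26.0 and 21.7 in the libraries labelled Spic_KO and 330.4, 211 and 221 in Spic_WT libraries. Values throughout are normalised read counts, scaled separately in the 2 tables, so they compare only within a table. Each library holds bulk RNA, so fewer cells of a type and less RNA per cell cannot be told apart.

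RefSeq promoters (GRCm38.p6), from 250 bases before to 50 bases after a start, were found for 34 of the 41 genes. The motifs searched, on both strands, were the E-box CACGTG, the CLEAR core TCACGTGA, which contains the E-box, the M-box TCATGTG and the ETS core GAGGAAGT. The CLEAR core was in the promoters of 6 of the 34 genes (17.6%), namely Ctsa, Ctsd, Gla, Mcoln1, Atp6v0d1 and Atp6v1a, and in 1.94% of 11116 tested genes with a promoter of the same length. The E-box was in 12 of 34 (35.3%) and in 11.02% of those tested genes, the M-box in 6 of 34 (17.6%) and 2.84%, and the ETS core in 4 of 34 (11.8%) and 3.78%. Gla, Atp6v0d1 and Atp6v1a are shown because they hold the CLEAR core and rose in vavCre macrophages of both tissues, and Ctsa, Ctsd and Mcoln1 because they hold it and were called in neither tissue. For Ctsa, which has a pair of listed starts, the promoter that holds the element is shown. Capitals mark each E-box or CLEAR core, and each sequence runs 5′ to 3′ on the strand of its gene.
Gla, chrX:134600956-134601255, minus strand: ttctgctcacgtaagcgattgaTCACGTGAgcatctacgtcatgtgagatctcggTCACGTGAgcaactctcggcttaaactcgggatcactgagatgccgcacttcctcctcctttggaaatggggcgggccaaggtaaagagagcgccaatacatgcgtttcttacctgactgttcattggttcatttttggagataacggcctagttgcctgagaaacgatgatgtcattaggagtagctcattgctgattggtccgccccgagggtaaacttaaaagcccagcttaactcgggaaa
Atp6v0d1, chr8:105566015-105566314, minus strand: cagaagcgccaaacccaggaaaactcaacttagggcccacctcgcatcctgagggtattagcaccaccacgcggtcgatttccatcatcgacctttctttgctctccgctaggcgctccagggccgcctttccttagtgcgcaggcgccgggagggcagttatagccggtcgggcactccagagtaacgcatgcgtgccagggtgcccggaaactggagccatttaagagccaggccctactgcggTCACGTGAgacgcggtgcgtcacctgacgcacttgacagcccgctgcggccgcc
Atp6v1a, chr16:44139210-44139509, minus strand: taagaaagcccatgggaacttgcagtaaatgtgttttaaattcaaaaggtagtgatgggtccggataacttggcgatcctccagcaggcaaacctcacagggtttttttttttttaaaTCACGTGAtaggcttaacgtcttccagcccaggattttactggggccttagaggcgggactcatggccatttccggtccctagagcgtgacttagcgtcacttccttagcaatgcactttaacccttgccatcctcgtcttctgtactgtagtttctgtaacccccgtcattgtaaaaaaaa
Ctsa, chr2:164833523-164833822, plus strand: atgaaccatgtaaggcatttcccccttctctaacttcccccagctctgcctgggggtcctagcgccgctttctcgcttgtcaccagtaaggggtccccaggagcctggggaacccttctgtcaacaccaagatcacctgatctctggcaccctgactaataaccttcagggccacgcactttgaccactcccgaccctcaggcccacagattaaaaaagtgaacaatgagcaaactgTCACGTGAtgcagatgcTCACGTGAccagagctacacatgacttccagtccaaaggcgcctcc
Ctsd, chr7:142387778-142388077, minus strand: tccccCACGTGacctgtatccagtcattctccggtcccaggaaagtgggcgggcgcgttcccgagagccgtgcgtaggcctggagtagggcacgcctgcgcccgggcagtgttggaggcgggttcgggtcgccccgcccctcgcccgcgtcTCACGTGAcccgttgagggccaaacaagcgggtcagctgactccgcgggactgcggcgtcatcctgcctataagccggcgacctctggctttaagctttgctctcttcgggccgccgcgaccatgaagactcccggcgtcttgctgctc
Mcoln1, chr8:3500269-3500568, plus strand: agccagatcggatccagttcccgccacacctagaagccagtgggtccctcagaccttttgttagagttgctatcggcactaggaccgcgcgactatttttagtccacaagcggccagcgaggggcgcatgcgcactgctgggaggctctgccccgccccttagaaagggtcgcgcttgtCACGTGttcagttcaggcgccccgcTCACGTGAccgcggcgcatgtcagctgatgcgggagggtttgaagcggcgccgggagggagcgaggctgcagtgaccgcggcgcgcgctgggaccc

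Gla carries the CLEAR core at -228 and again at -195, counted from the start base as 0. Atp6v0d1 carries it at -4, Atp6v1a at -132, Ctsa at -13 and again at 4, Ctsd at -99 and Mcoln1 at -46. Of the 6 genes with a CLEAR core, 3 rose in vavCre macrophages in both tissues, and of the 28 matched genes without one, 7 did.

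The first question was how lysosome genes differ in the macrophages that remain in vavCre pups. In the spleen, 16 of the 41 genes rose and 0 fell, while 2.98% of the 15130 genes tested rose and 2.54% fell (limma-trend, Benjamini-Hochberg adjusted p under 0.05 over all genes). The 41 genes had a median log2 change of 0.43, and all genes tested had one of -0.02. In the marrow 14 of the 41 rose and 0 fell, with 3.41% of all genes rising and 4.4% falling, and the medians were 0.35 for the 41 genes and -0.04 for all genes. At an unadjusted p under 0.05, limma gave 1 fall in spleen and 2 in marrow, edgeR called 0 falls in either tissue, and DESeq2 called 0 in spleen and 1 in marrow. The 41 genes together held 3.84 to 4.54% of the signal of each splenic vavCre library and 3.1 to 3.92% of each splenic WT library. In marrow they held 3.77 to 3.79% in vavCre libraries and 2.98 to 3.26% in WT libraries. The summed shares overlapped between genotypes in the spleen and were apart in the marrow. The splenic count of 16 dropped to 8 when replicate 1 or replicate 2 of RPM_d7_WT, or replicate 2 of RPM_d7_vavCre, was left out, and to 7 without RPM_d7_vavCre replicate 3.

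Of the genes that rose, 12 were called in both tissues, which is 75% of the splenic and 85.7% of the marrow calls. They were Ctsc, Ctsh, Ctsl, Gla, Hexa, Cd63, Lamp2, Grn, Npc1, Atp6v0d1, Atp6v1a and Mitf. Among all genes tested, 284 rose in both tissues, 63.0% of the splenic and 55.04% of the marrow rises. Tpp1, Neu1, Lamp1 and Tfe3 were called in the spleen alone and Ctsz and Gusb in the marrow alone, and none of these 6 passed the test of the difference between tissues.

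**Figure D1:**
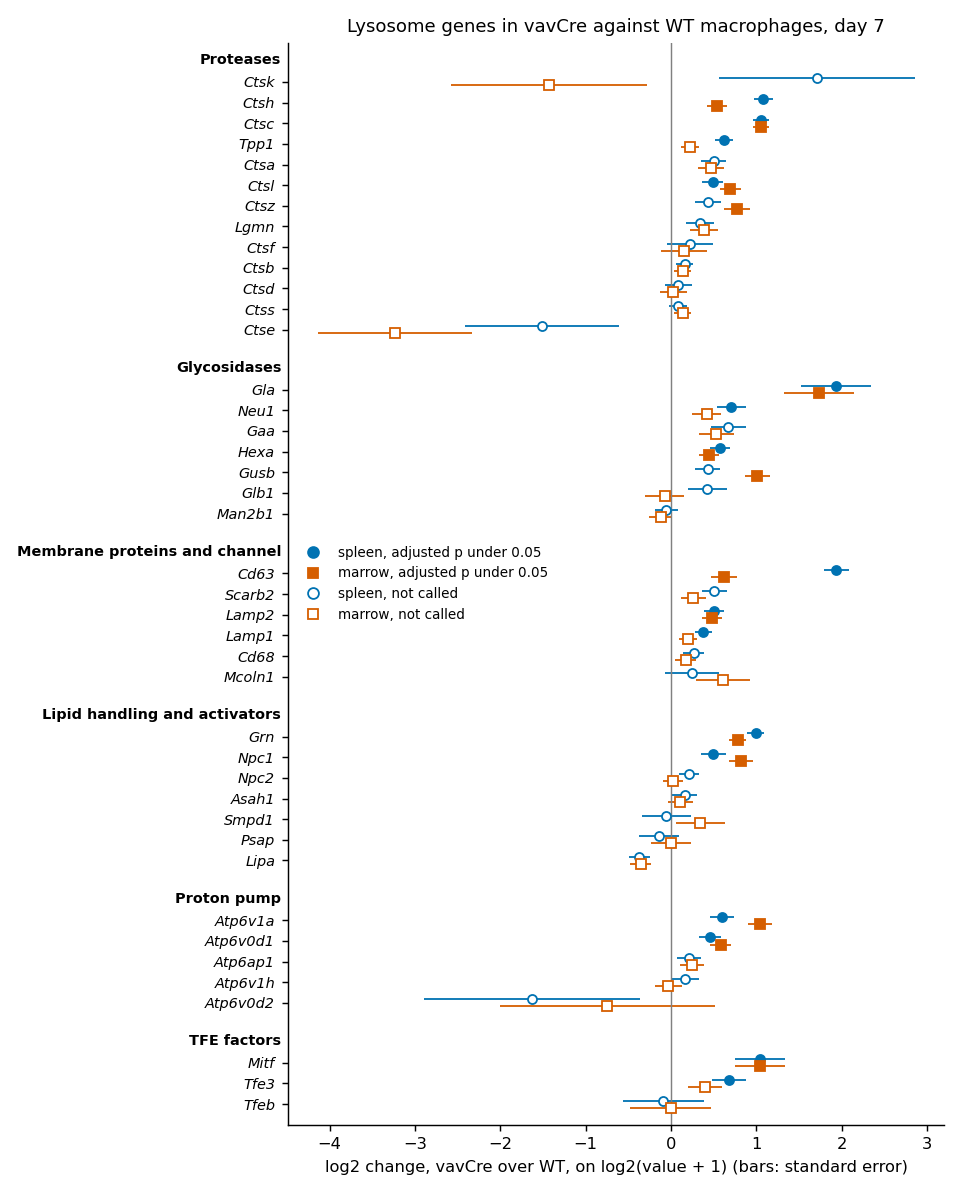
Log2 change (x axis, vavCre over WT, on the log2(value + 1) scale, with standard errors) of each lysosome gene (y axis, by role) in day-7 spleen (circles) and marrow (squares). Filled symbols had an adjusted p under 0.05: 16 genes in spleen and 14 in marrow, with each filled symbol right of 0, and the symbols farthest left (Ctse, with Atp6v0d2 in spleen and Ctsk in marrow) open.

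Among the 13 proteases, 4 rose in each tissue, and the median log2 change of the 13 was 0.44 in spleen and 0.22 in marrow. Ctsc encodes cathepsin C, which activates the serine proteases of granules (ENSMUSG00000030560, chromosome 7, 88278085 to 88310888, plus strand, GRCm38). It was at 44910, 39100 and 41630 in splenic vavCre libraries, against 18470, 18770 and 23580 in splenic WT libraries. In the marrow its values were 30900, 29870 and 29880 in vavCre libraries and 14070, 14240 and 15300 in WT libraries. Each vavCre library was above each WT library of its tissue, and the log2 change was 1.05 (SE 0.09, adjusted p = 4.66e-07) in spleen and 1.06 (SE 0.09, adjusted p = 4.9e-07) in marrow. Ctsh, for the aminopeptidase cathepsin H, had 9269, 8439 and 8290 in splenic vavCre libraries and 3758, 3968 and 4588 in splenic WT libraries. Marrow libraries had 7513, 8287 and 8528 in vavCre and 4971, 5937 and 5873 in WT. Again no values overlapped, with log2 changes of 1.08 (SE 0.11, adjusted p = 3.69e-06) in spleen and 0.54 (SE 0.11, adjusted p = 0.00493) in marrow.

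Ctsl, for the endopeptidase cathepsin L, was at 8343, 8317 and 8548 in splenic vavCre libraries and 5802, 5430 and 6767 in splenic WT libraries, and at 6975, 6150 and 8057 in marrow vavCre libraries and 4856, 3868 and 4345 in marrow WT libraries. It was higher in each vavCre library, by a log2 change of 0.49 (adjusted p = 0.0211) in spleen and 0.69 (adjusted p = 0.00123) in marrow. The splenic Ctsl call was lost without RPM_d7_WT replicate 1 (adjusted p 0.0891) or 2 (0.114) or RPM_d7_vavCre replicate 1 (0.0537), 2 (0.0673) or 3 (0.0831). Tpp1, for a tripeptidyl peptidase whose loss in humans causes a neuronal storage disease, was at 8974, 8422 and 9697 in splenic vavCre libraries and 5747, 6015 and 5832 in splenic WT libraries, without overlap (0.62, adjusted p = 0.000642). In marrow it was at 8999, 7501 and 9044 in vavCre libraries and 7195, 7097 and 7544 in WT libraries, where the groups overlapped (0.22, adjusted p = 0.226). Ctsz, for the carboxypeptidase cathepsin Z, was at 18970, 22830 and 17150 in marrow vavCre libraries and 10520, 12900 and 10880 in marrow WT libraries, a rise of 0.78 (adjusted p = 0.00273) without overlap. In spleen its values were 23200, 15990 and 16090 in vavCre libraries and 11900, 12180 and 16570 in WT libraries, which overlapped (0.44, adjusted p = 0.114).

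In WT spleen and WT marrow Ctsb, Ctsd and Ctss were the most abundant proteases per length, and none of them passed the vavCre test in either tissue. Ctsb, Ctsd and Ctss, for cathepsins B, D and S, had log2 changes from 0.09 to 0.16 in spleen and 0.03 to 0.14 in marrow, with adjusted p of at least 0.504 in spleen and 0.504 in marrow. Ctsa, Lgmn and Ctsf had positive changes that were not called. Ctse, for the aspartic protease cathepsin E, was the only protease with a negative estimate in both tissues (-1.51, adjusted p = 0.501 in spleen, and -3.24, adjusted p = 0.0652 in marrow). Its vavCre libraries lay below its WT libraries in both tissues, but the test was not passed. Ctsk, for the collagenase of osteoclasts, had at most 25.1 in any library.

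Of the 7 glycosidases, 3 rose in each tissue, with medians of 0.57 and 0.44. Gla, for α-galactosidase A, the enzyme that is deficient in Fabry disease, was among the lowest of the 41 genes per length. Its values were 228, 235 and 203 in splenic vavCre libraries, against 45.9, 39.9 and 103 in splenic WT libraries. In marrow they were 406, 347 and 296 in vavCre libraries and 137, 86.7 and 93.0 in WT libraries. The vavCre libraries lay above the WT libraries in both tissues, by log2 changes of 1.93 (SE 0.41, adjusted p = 0.00609) and 1.74 (SE 0.41, adjusted p = 0.0115), which are folds of 3.81 and 3.33 on the log2(value + 1) scale. Hexa, for the α subunit of β-hexosaminidase, was at 12160, 10380 and 10100 in splenic vavCre libraries and 6955, 6443 and 8672 in splenic WT libraries. Marrow values were 10140, 10780 and 10770 in vavCre libraries and 8356, 7767 and 7218 in WT libraries. It rose in both, by 0.57 (adjusted p = 0.00405) and 0.44 (adjusted p = 0.022), and the marrow call for Hexa was not kept without BMM_d7_WT replicate 3 (adjusted p 0.0996) or BMM_d7_vavCre replicate 2 (0.0631) or 3 (0.0632).

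Gusb, for β-glucuronidase, was at 2732, 2980 and 2759 in marrow vavCre libraries and 1269, 1511 and 1430 in marrow WT libraries, a rise of 1.01 (adjusted p = 0.000175). In spleen it was at 1670, 2157 and 2029 in vavCre libraries and 1375, 1335 and 1626 in WT libraries, also without overlap but not called (0.43, adjusted p = 0.114). Neu1, for the sialidase that trims glycoproteins, was at 1950, 2033 and 1929 in splenic vavCre libraries and 1088, 1231 and 1310 in splenic WT libraries, a rise of 0.71 (adjusted p = 0.0162). The Neu1 call in spleen was not kept without RPM_d7_WT replicate 1 (adjusted p 0.0954) or 2 (0.0515) or RPM_d7_vavCre replicate 2 (0.0726) or 3 (0.0555). In marrow Neu1 had 1028, 1119 and 1451 in vavCre libraries and 798, 855 and 1021 in WT libraries, apart but not called (0.42, adjusted p = 0.16). Gaa, for acid α-glucosidase, had positive changes in both tissues, and Glb1 and Man2b1 had estimates from -0.12 to 0.43, none of them called.

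Of the 6 membrane proteins, 3 rose in spleen and 2 in marrow, with medians of 0.44 and 0.37. Cd63, for a tetraspanin of late endosomes and lysosomes (ENSMUSG00000025351, chromosome 10, 128900989 to 128912822, plus strand), had the largest splenic change of the 41 genes. It was at 3617, 2958 and 3614 in splenic vavCre libraries, against 883, 718 and 1080 in splenic WT libraries. In marrow its values were 8576, 9379 and 7177 in vavCre libraries and 5323, 5554 and 5344 in WT libraries. No library of one genotype reached the other, and the log2 change was 1.94 in spleen (SE 0.15, adjusted p = 7.08e-08, a fold of 3.83) and 0.62 in marrow (SE 0.15, adjusted p = 0.0134, a fold of 1.54). The marrow call was lost without BMM_d7_vavCre replicate 2 (adjusted p 0.0629). Cd63 was also the only one of the 41 genes called in the test of whether the vavCre change differed between tissues. Its difference was 1.32 on the log2 scale (SE 0.21, interaction adjusted p = 0.0098). Among all genes, 0.112% had a larger and 0.00661% a smaller change in spleen by this test. At an unadjusted p under 0.05, limma gave 3 of the 41 genes, Cd63 among them, a larger change in spleen and 2 a smaller one. The Cd63 level in splenic vavCre libraries stayed under that of each marrow library of either genotype.

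Lamp2 and Lamp1 encode the major glycoproteins of the lysosomal membrane. Lamp2 was at 5685, 6623 and 6871 in splenic vavCre libraries and 4428, 4224 and 4892 in splenic WT libraries, and at 6849, 6277 and 7498 in marrow vavCre libraries and 5108, 4477 and 5200 in marrow WT libraries. It rose without overlap in both tissues (0.50, adjusted p = 0.0125, and 0.48, adjusted p = 0.0139). The splenic call was lost without RPM_d7_WT replicate 1 (adjusted p 0.0562) or 2 (0.068) or RPM_d7_vavCre replicate 2 (0.0664) or 3 (0.0831), and the marrow call without BMM_d7_WT replicate 2 (adjusted p 0.0508) or BMM_d7_vavCre replicate 3 (0.0641). Lamp1 was at 25630, 23010 and 24120 in splenic vavCre libraries and 17030, 16820 and 22540 in splenic WT libraries (0.38, adjusted p = 0.0305), and at 21650, 22160 and 22200 in marrow vavCre libraries and 18590, 20250 and 18680 in marrow WT libraries (0.20, adjusted p = 0.275). These groups did not overlap, and the splenic Lamp1 call was lost with the compared groups only (adjusted p 0.0986) or edgeR with TMM factors (0.0564) and without RPM_d7_WT replicate 1 (adjusted p 0.171) or 2 (0.162) or RPM_d7_vavCre replicate 1 (0.115), 2 (0.0563) or 3 (0.0945). Scarb2 (LIMP-2, which carries glucocerebrosidase to lysosomes), Cd68 and the calcium channel gene Mcoln1 had positive changes in both tissues that were not called, of which the splenic Scarb2 value was nearest the threshold (0.51, adjusted p = 0.0516).

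Of the 7 genes of lipid handling and activation, Grn and Npc1 rose in both tissues, and the medians were lower, at 0.16 and 0.11. Grn encodes progranulin, a secreted and lysosomal glycoprotein whose loss in humans leads to lysosomal storage in neurons (ENSMUSG00000034708, chromosome 11, 102430315 to 102437048, plus strand). It was at 40300, 35030 and 37890 in splenic vavCre libraries, against 19350, 16290 and 21440 in splenic WT libraries. In marrow it was at 32520, 31940 and 35660 in vavCre libraries and 17790, 21230 and 19210 in WT libraries. The genotypes were well apart in both tissues, with log2 changes of 0.99 (SE 0.10, adjusted p = 2.32e-06) and 0.78 (SE 0.10, adjusted p = 4.36e-05). Npc1, for the transporter that exports cholesterol from lysosomes, was at 2258, 2187 and 2098 in splenic vavCre libraries and 1637, 1604 and 1401 in splenic WT libraries. Marrow values were 2234, 2577 and 3015 in vavCre libraries and 1402, 1478 and 1524 in WT libraries. Its groups did not overlap (0.50, adjusted p = 0.0494 in spleen, and 0.82, adjusted p = 0.00111 in marrow), and the splenic call was lost with no filter on low values (adjusted p 0.0544) or a pseudocount of 0.1 (0.0525) and without RPM_d7_WT replicate 1 (adjusted p 0.097), 2 (0.102) or 3 (0.174), RPM_d7_vavCre replicate 1 (0.139), 2 (0.145) or 3 (0.111), BMM_d7_WT replicate 1 (0.0518) or 3 (0.064) or BMM_d7_vavCre replicate 2 (0.0565).

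Lipa, for the acid lipase that frees cholesterol and fatty acids from esters, had 5989, 4919 and 5308 in splenic vavCre libraries and 6664, 6146 and 8268 in splenic WT libraries. In marrow it had 4331, 4471 and 4495 in vavCre libraries and 6397, 5257 and 5402 in WT libraries. Each vavCre library was below each WT library, but the changes of -0.37 (adjusted p = 0.104) and -0.35 (adjusted p = 0.0987) were not called. Npc2, Asah1, Smpd1 and Psap, for a cholesterol carrier, acid ceramidase, acid sphingomyelinase and prosaposin, had log2 changes from -0.14 to 0.35 and none was called.

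Of the 5 proton pump genes, Atp6v1a and Atp6v0d1 rose in both tissues, and the medians were 0.21 and 0.24. Atp6v1a encodes the catalytic A subunit, and its values were 3849, 3848 and 3951 in splenic vavCre libraries, against 2835, 2382 and 2474 in splenic WT libraries. In marrow they were 6747, 5429 and 5581 in vavCre libraries and 3543, 2647 and 2501 in WT libraries. All vavCre values exceeded the WT values of the same tissue, by 0.60 (adjusted p = 0.0127) in spleen and 1.04 (adjusted p = 7.44e-05) in marrow, and the splenic call was lost without RPM_d7_WT replicate 2 (adjusted p 0.0667) or RPM_d7_vavCre replicate 3 (0.0555). Atp6v0d1, for a d subunit of the membrane sector, was at 3326, 3542 and 3253 in splenic vavCre libraries and 2627, 2594 and 2183 in splenic WT libraries. Marrow values were 3741, 3466 and 3723 in vavCre libraries and 2761, 2267 and 2303 in WT libraries. It too rose without overlap (0.45, adjusted p = 0.0421, and 0.58, adjusted p = 0.00714), and the splenic call was lost without RPM_d7_WT replicate 1 (adjusted p 0.0741), 2 (0.0753) or 3 (0.17), RPM_d7_vavCre replicate 1 (0.0902), 2 (0.169) or 3 (0.0983) or BMM_d7_WT replicate 3 (0.0542). Atp6ap1, for an accessory protein, was at 3850, 3719 and 3549 in splenic vavCre libraries and 2801, 3057 and 3858 in splenic WT libraries, and at 3303, 3631 and 3791 in marrow vavCre libraries and 2542, 3286 and 3283 in marrow WT libraries. Neither Atp6ap1 (0.21 and 0.24) nor Atp6v1h was called. Atp6v0d2, the d subunit known from osteoclasts, reached 83.7 in 1 marrow vavCre library and at most 17.8 in any splenic library, with no call.

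**Figure D2:**
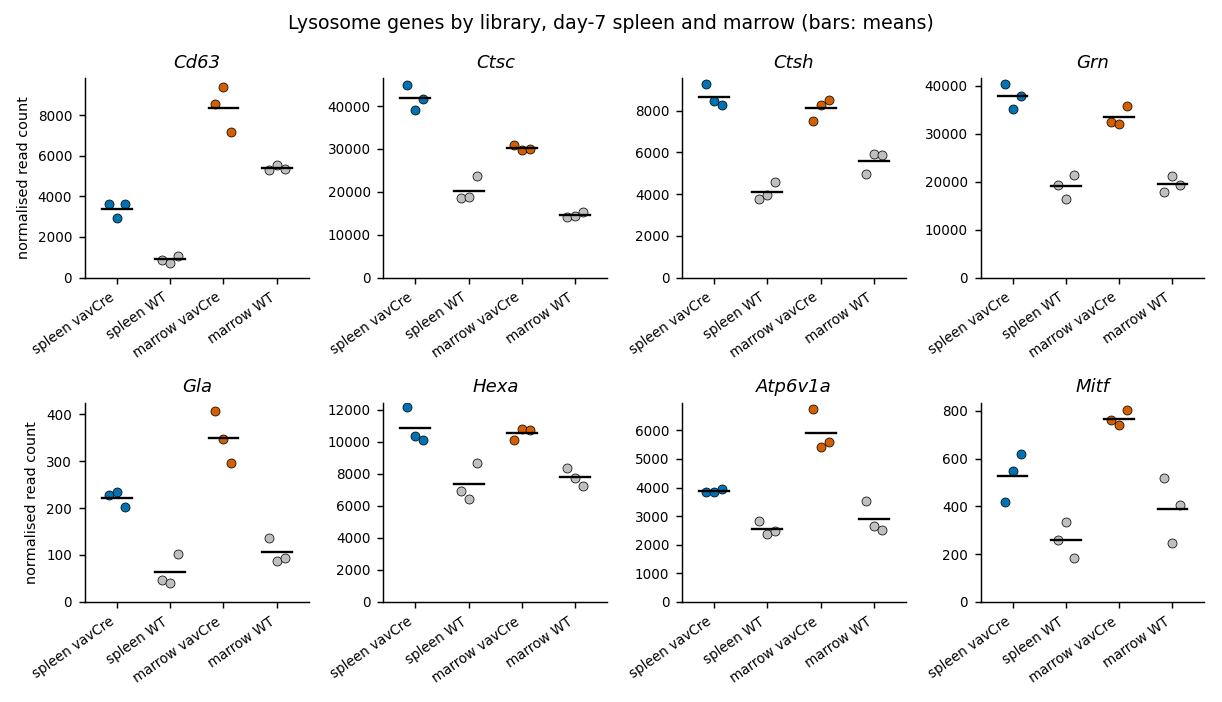
Normalised read counts (y axis, from 0) of 8 lysosome genes in each library of day-7 spleen and marrow, vavCre and WT (x axis, 3 points a group, bars at means). In each panel the vavCre points of a tissue lie above its WT points; for Cd63 the splenic vavCre points, at 2958 to 3617, still lie below the marrow WT points, at 5323 to 5554.

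The TFE factors are the transcription factors known to bind CLEAR elements. Mitf was at 417, 548 and 619 in splenic vavCre libraries, against 259, 334 and 185 in splenic WT libraries. In marrow it was at 762, 739 and 804 in vavCre libraries and 519, 246 and 407 in WT libraries. It rose without overlap by 1.04 (SE 0.29, adjusted p = 0.0416) in spleen and 1.04 (SE 0.29, adjusted p = 0.0337) in marrow. The splenic Mitf call was lost with no filter on low values (adjusted p 0.0624) and without RPM_d7_WT replicate 1 (adjusted p 0.104) or 3 (0.196), RPM_d7_vavCre replicate 2 (0.137) or 3 (0.17) or BMM_d7_WT replicate 3 (0.053). The marrow call was lost with no filter on low values (adjusted p 0.0501), the compared groups only (0.074) or library weights (0.073) and without BMM_d7_WT replicate 2 (adjusted p 0.14) or 3 (0.0629) or BMM_d7_vavCre replicate 1 (0.0713), 2 (0.0634) or 3 (0.0814). Tfe3 was at 990.5, 799 and 912 in splenic vavCre libraries and 638, 604 and 454 in splenic WT libraries, and at 1091, 942 and 1095 in marrow vavCre libraries and 806, 681 and 899 in marrow WT libraries. Only the splenic rise was called (0.68, adjusted p = 0.0496, against 0.40, adjusted p = 0.267 in marrow), and it held under 7 of 22 alternatives. It was lost with no filter on low values (adjusted p 0.0576), a pseudocount of 0.1 (0.052) or the compared groups only (0.057), and without RPM_d7_WT replicate 1 (adjusted p 0.0681), 2 (0.0912) or 3 (0.219), RPM_d7_vavCre replicate 1 (0.171), 2 (0.075) or 3 (0.144), BMM_d7_WT replicate 1 (0.0553) or 3 (0.058) or BMM_d7_vavCre replicate 1 (0.0531), 2 (0.0509) or 3 (0.0508). Tfeb was at 158, 168 and 165 in splenic vavCre libraries and 177, 187 and 159 in splenic WT libraries, and at 60.7, 234 and 294 in marrow vavCre libraries and 211, 166 and 121 in marrow WT libraries. Its groups overlapped in both tissues, with log2 changes of -0.09 in spleen and -0.00466 in marrow.

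Beyond the 41 genes, a list of 100 other lysosomal genes was read, of which 99 were tested. In vavCre spleen 10 rose and 6 fell, with a median log2 change of 0.27, and in vavCre marrow 12 rose and 4 fell, with a median of 0.21. Of all genes tested, 2.98% rose and 2.54% fell in spleen, and 3.41% rose and 4.4% fell in marrow. Atp6ap2, for a V-ATPase accessory protein, was at 7433, 8441 and 8662 in splenic vavCre libraries and 3492, 4104 and 4318 in splenic WT libraries (1.04, adjusted p = 5.34e-06), and rose by 0.78 in marrow (adjusted p = 0.000153). The cathepsin inhibitor genes Cstb and Cst3 rose in spleen by 0.83 (adjusted p = 0.000169) and 0.63 (adjusted p = 6.32e-05), and Cstb rose in marrow by 0.94 (adjusted p = 4.5e-05). Litaf, for a protein of late endosomes, rose in marrow by 1.00 (adjusted p = 8.93e-05). Gpnmb, for a lysosomal glycoprotein of macrophages, was at 322, 601 and 254 in marrow vavCre libraries and 2.01, 0 and 0 in marrow WT libraries (adjusted p = 0.000114). Of the genes called, the largest fall was that of Sort1, for the sorting receptor sortilin, at 315, 312 and 510.1 in splenic vavCre libraries and 2761, 2526 and 2393 in splenic WT libraries. It was at 502, 379 and 412 in marrow vavCre libraries and 2329, 2554 and 2717 in marrow WT libraries, so the groups were far apart in both (-2.79, adjusted p = 2.54e-08, and -2.56, adjusted p = 9.31e-08). The thioesterase gene Ppt2 fell in both tissues (-1.49, adjusted p = 0.00163, and -1.60, adjusted p = 0.000854), the peptide transporter gene Slc15a3 in spleen (-1.55, adjusted p = 0.000139) and the acid phosphatase gene Acp5 in marrow (-0.76, adjusted p = 0.0144).

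Markers of other cells moved with genotype in these libraries. The 12 erythroid markers summed to 1.17 to 1.62% of the signal in splenic vavCre libraries and 2.29 to 3.5% in splenic WT libraries, and 8 of 12 fell. In marrow they summed to 0.976 to 1.43% in vavCre libraries and 2.56 to 3.75% in WT libraries, and 11 of 12 fell. The 10 macrophage markers summed to 1.98 to 2.2% in splenic vavCre libraries and 1.45 to 1.62% in splenic WT libraries, with 2 that rose and 0 that fell, and to 1.72 to 1.86% in marrow vavCre libraries and 1.26 to 1.62% in marrow WT libraries, with 3 that rose and 2 that fell. The 8 markers of red pulp and island macrophages, which include Spic, summed to 1.31 to 1.47% in splenic vavCre libraries and 1.85 to 2.02% in splenic WT libraries, with 1 that rose and 6 that fell. In marrow they summed to 0.789 to 0.879% in vavCre libraries and 1.3 to 1.38% in WT libraries, with 1 that rose and 5 that fell. The 11 neutrophil markers summed to 0.0251 to 0.0527% in splenic vavCre libraries and 0.00331 to 0.0246% in splenic WT libraries (1 rose), and to 0.0162 to 0.023% in marrow vavCre libraries and 0.0158 to 0.0459% in marrow WT libraries, with Elane, Prtn3 and Ly6g at 0 in the marrow vavCre group. Elane was at 0 in the marrow WT group too. Means of Retnlg (84.1 against 4.15) and Ctsg (282 against 209) were higher in marrow vavCre than in marrow WT, with overlap. Those of S100a8, S100a9, Ngp, Camp, Ltf, Mpo, Prtn3 and Ly6g were lower. The osteoclast markers Calcr, Oscar and Dcstamp were at 0 in both splenic groups. The 8 osteoclast markers, which include Acp5, summed to 0.0376 to 0.045% in splenic vavCre libraries and 0.0338 to 0.0459% in splenic WT libraries. Of 5 tested there, 1 rose. Splenic means were higher in vavCre for Tnfrsf11a (1116 against 531), Ocstamp (52.4 against 7.94) and Mmp9 (20.9 against 0.403). Those of Acp5 (3041 against 3364) and Itgb3 were lower. In marrow the list summed to 0.021 to 0.0243% in vavCre libraries and 0.0238 to 0.0274% in WT libraries. Marrow means of Tnfrsf11a (1063 against 707), Mmp9 (73.4 against 29.1), Ocstamp, Itgb3 and Calcr were higher in vavCre. Those of Acp5 (995 against 1679) and Oscar were lower. Of the lists for monocytes, dendritic cells, B cells, T and NK cells, megakaryocytes and proliferation, none had a marker that rose in either tissue by limma, and those that fell were 1 of 7 B cell markers in spleen and 2 in marrow, 1 of 7 dendritic cell markers in spleen, 1 of 6 megakaryocyte markers in marrow and 3 of 6 proliferation markers in each tissue. The part of these cells in the lysosomal results was not tested.

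Spleen and marrow macrophages of the same genotype were then compared, using the libraries already described. In WT pups 6 of the 41 genes were higher and 2 lower in spleen, with 2.07% of all genes higher and 1.82% lower. In vavCre pups 6 were higher and 2 lower, with 2.68% of all genes higher and 0.82% lower. Cd63 was lower in the spleen in both genotypes, with log2 changes of -1.30 in vavCre pups (SE 0.15, adjusted p = 2.38e-05) and -2.62 in WT pups (SE 0.15, adjusted p = 4.85e-09). Ctsc was higher in the spleen in both, by 0.47 in vavCre pups (adjusted p = 0.00628) and 0.47 in WT pups (adjusted p = 0.00652), where the WT call was lost with the compared groups only (adjusted p 0.0508).

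Ctss, for cathepsin S, which processes antigens, was at 22610, 23500 and 25600 in WT spleen and 16380, 17060 and 16590 in WT marrow, without overlap (0.52, adjusted p = 0.00674). Lgmn, for the asparaginyl endopeptidase legumain, was at 11310, 9827 and 15790 in WT spleen and 6707, 9196 and 6631 in WT marrow (0.70, adjusted p = 0.0168). The Lgmn call was lost with the compared groups only (adjusted p 0.0612) and without RPM_d7_WT replicate 3 (adjusted p 0.11) or BMM_d7_WT replicate 1 (0.0885) or 3 (0.0904). Ctsh was lower in WT spleen than in WT marrow, with a log2 change of -0.45 (adjusted p = 0.0304), a call lost with the compared groups only (adjusted p 0.0964) and without RPM_d7_WT replicate 1 (adjusted p 0.155) or 2 (0.0935) or BMM_d7_WT replicate 2 (0.0695) or 3 (0.119). In vavCre pups Man2b1, for the α-mannosidase of lysosomes, was at 9924, 8298 and 9084 in spleen and 5302, 5778 and 6439 in marrow (0.64, adjusted p = 0.0088), a call lost without RPM_d7_vavCre replicate 1 (adjusted p 0.0551). Cd68, the scavenger receptor gene often used as a macrophage marker, was at 25030, 20410 and 22830 in vavCre spleen and 14140, 16270 and 15250 in vavCre marrow (0.58, adjusted p = 0.0112), a call lost without RPM_d7_vavCre replicate 1 (adjusted p 0.0678) or BMM_d7_vavCre replicate 1 (0.0518). Atp6v1a was lower in vavCre spleen than in vavCre marrow, with a log2 change of -0.60 (adjusted p = 0.0207), a call lost without RPM_d7_vavCre replicate 1 (adjusted p 0.0709), 2 (0.0678) or 3 (0.0626) or BMM_d7_vavCre replicate 1 (0.0929). The count of 8 in WT pups dropped to 4 without RPM_d7_WT replicate 3, 5 without BMM_d7_WT replicate 1 and 3 without BMM_d7_WT replicate 3, and the count of 8 in vavCre pups to 2 without RPM_d7_vavCre replicate 1 and 5 without BMM_d7_vavCre replicate 2.

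The libraries labelled Spic_KO kept many reads of Spic, a transcription factor gene, at 931 and 1236, against 3110, 1993 and 2203 in Spic_WT libraries. Pparg was at 26.0 and 21.7 in the libraries labelled Spic_KO and 330.4, 211 and 221 in Spic_WT libraries. The part of either gene in the differences below was not tested. The libraries labelled Spic_KO were compared with Spic_WT spleen, all from day-7 red pulp macrophages. Here lysosome genes went both ways: 4 of the 40 tested rose and 4 fell, with 1.47% of all genes rising and 2.48% falling (limma-trend, 16650 genes tested). Psap, for prosaposin, the precursor of the saposins that assist sphingolipid breakdown (ENSMUSG00000004207, chromosome 10, 60277627 to 60302597, plus strand), was at 4134 and 5095 in the libraries labelled Spic_KO, against 1436, 1407 and 1252 in Spic_WT libraries. Both were above all controls, and the log2 change was 1.75 (SE 0.19, adjusted p = 1.5e-05, a fold of 3.37). Ctsd, for the aspartic protease cathepsin D, was at 4960 and 6904 in the libraries labelled Spic_KO and 2783, 2471 and 2397 in Spic_WT libraries (1.20, SE 0.23, adjusted p = 0.00418). Ctsh was at 1026 and 1095 in the libraries labelled Spic_KO and 652, 554 and 509 in Spic_WT libraries (0.90, adjusted p = 0.0411). Cd63 was at 333 and 143 in the libraries labelled Spic_KO and 89.7, 71.1 and 36.6 in Spic_WT libraries (1.81, SE 0.50, adjusted p = 0.0472), with its 2 values unequal but both above the controls.

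Among the genes that fell, Asah1, for acid ceramidase, was at 285 and 131 in the libraries labelled Spic_KO, against 936, 528 and 608 in Spic_WT libraries (-1.78, SE 0.44, adjusted p = 0.0236). Cd68 was at 785 and 736 in the libraries labelled Spic_KO and 2875, 1190 and 1532 in Spic_WT libraries (-1.19, adjusted p = 0.0429). Ctss was at 2496 and 2263 in the libraries labelled Spic_KO and 4884, 3241 and 4158 in Spic_WT libraries (-0.76, adjusted p = 0.0399). These 3 genes had no overlap between groups. Ctse was at 86.1 and 5.17 in the libraries labelled Spic_KO and 229, 203 and 128 in Spic_WT libraries (-2.97, SE 0.78, adjusted p = 0.0359), and replicate 2 was far lower than replicate 1. The 32 other genes tested ran from -0.82 to 3.13, where Gla, at 31.5 and 33.1 in the libraries labelled Spic_KO and 1.01, 4.55 and 3.88 in Spic_WT libraries, was apart but not called (adjusted p = 0.167) and is named after its values were seen.

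Of these 8 calls, Psap kept its own with each library left out, and the count of 8 dropped to 2 without RPM_d7_Spic_WT replicate 1, RPM_d7_Spic_WT replicate 3 or RPM_d7_Spic_KO replicate 2, and to 5 without RPM_d7_Spic_WT replicate 2. It was 4 without RPM_TAM_CreERT2 replicate 1, and 3 without RPM_TAM_CreERT2 replicate 4 or replicate 5, since adult libraries share the estimate of spread. Ctsd was lost without RPM_d7_Spic_KO replicate 2 (adjusted p 0.107), Asah1 without RPM_d7_Spic_WT replicate 1 (adjusted p 0.132) or 3 (0.0614) or RPM_d7_Spic_KO replicate 2 (0.273), and Ctse without RPM_d7_Spic_WT replicate 1 (adjusted p 0.173), 2 (0.115) or 3 (0.0718), RPM_d7_Spic_KO replicate 2 (0.55) or RPM_TAM_CreERT2 replicate 4 (0.058) or 5 (0.0566). Cd63 was lost without RPM_d7_Spic_WT replicate 1 (adjusted p 0.0647), 2 (0.093) or 3 (0.205), RPM_d7_Spic_KO replicate 1 (0.214), RPM_TAM_WT replicate 1 (0.0593) or 3 (0.0613) or RPM_TAM_CreERT2 replicate 1 (0.0566), 4 (0.0645) or 5 (0.0529). Ctsh was lost without RPM_d7_Spic_WT replicate 1 (adjusted p 0.0691), 2 (0.123) or 3 (0.171), RPM_d7_Spic_KO replicate 1 (0.0523) or 2 (0.2) or RPM_TAM_CreERT2 replicate 1 (0.055), 4 (0.0508) or 5 (0.057). Cd68 was lost without RPM_d7_Spic_WT replicate 1 (adjusted p 0.221) or 3 (0.0804), RPM_d7_Spic_KO replicate 1 (0.0644) or 2 (0.199) or RPM_TAM_CreERT2 replicate 1 (0.0635), 4 (0.0618) or 5 (0.0642), and Ctss without RPM_d7_Spic_WT replicate 1 (adjusted p 0.173) or 3 (0.137), RPM_d7_Spic_KO replicate 2 (0.24) or RPM_TAM_CreERT2 replicate 1 (0.0538), 4 (0.0524) or 5 (0.0631). Of 21 alternatives, Psap kept its call in 20, Ctsd in 18, Asah1 in 16, Ctsh in 10, Cd68 in 9, Ctss in 9, Cd63 in 7 and Ctse in 7. Ctse was also lost with no filter on low values (adjusted p 0.0801), a pseudocount of 0.1 (0.135), a pseudocount of 5 (0.0643), the compared groups only (0.345), edgeR with TMM factors (0.314), edgeR with RLE factors (0.298) or DESeq2 (0.0627), and Ctss with a pseudocount of 5 (adjusted p 0.0574), the compared groups only (0.175), library weights (0.109), edgeR with TMM factors (0.0661) or edgeR with RLE factors (0.0749). With the compared groups only, the adjusted p was 0.0735 for Ctsd, 0.169 for Asah1, 0.0698 for Ctsh, 0.274 for Cd68 and 0.237 for Cd63. On recovered reads, edgeR with TMM factors called 5 of the 40 genes higher and 2 lower. That test put 554 of 949 called genes on the rising side, against 245 of 658 with limma. The 10 macrophage markers summed to 0.929 to 1% in the libraries labelled Spic_KO and 1.31 to 1.76% in Spic_WT libraries, with 4 that fell. The 8 red pulp and island markers, with Spic among them, summed to 0.645 to 0.733% in the libraries labelled Spic_KO and 1.32 to 1.78% in Spic_WT libraries, with 4 that fell, and the osteoclast markers to 0.0387 to 0.0413% in the libraries labelled Spic_KO and 0.0277 to 0.0349% in Spic_WT libraries, with Calcr, Oscar and Dcstamp at 0 in both groups and 2 of 6 tested that rose. Monocyte markers summed to 0.00108 to 0.00186% in the libraries labelled Spic_KO and 0.00243 to 0.00739% in Spic_WT libraries, and T and NK cell markers to 0 to 3.26e-05% in the libraries labelled Spic_KO and 9.54e-05 to 0.000536% in Spic_WT libraries, with no single marker called. Sums of the erythroid, neutrophil, dendritic cell, B cell, megakaryocyte and proliferation lists overlapped between the groups. The part of these cells in the result was not tested. Of 99 other lysosomal genes tested, 1 rose (Sgsh, for a heparan sulfate sulfatase, 2.90, adjusted p = 0.0063) and 4 fell. Of all genes tested, 1.47% rose and 2.48% fell, so these counts are near the shares of all genes. Igf2r, for the receptor that carries hydrolases to lysosomes by mannose 6-phosphate, was listed at 0 and 0 in the libraries labelled Spic_KO, against 17.4, 33.6 and 20.1 in Spic_WT libraries (adjusted p = 0.000908). M6pr, for the other such receptor, fell with a log2 change of -1.33 (adjusted p = 0.0321), and the protease inhibitor gene Serpinb6a with one of -1.37 (adjusted p = 0.00333).

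**Figure D3:**
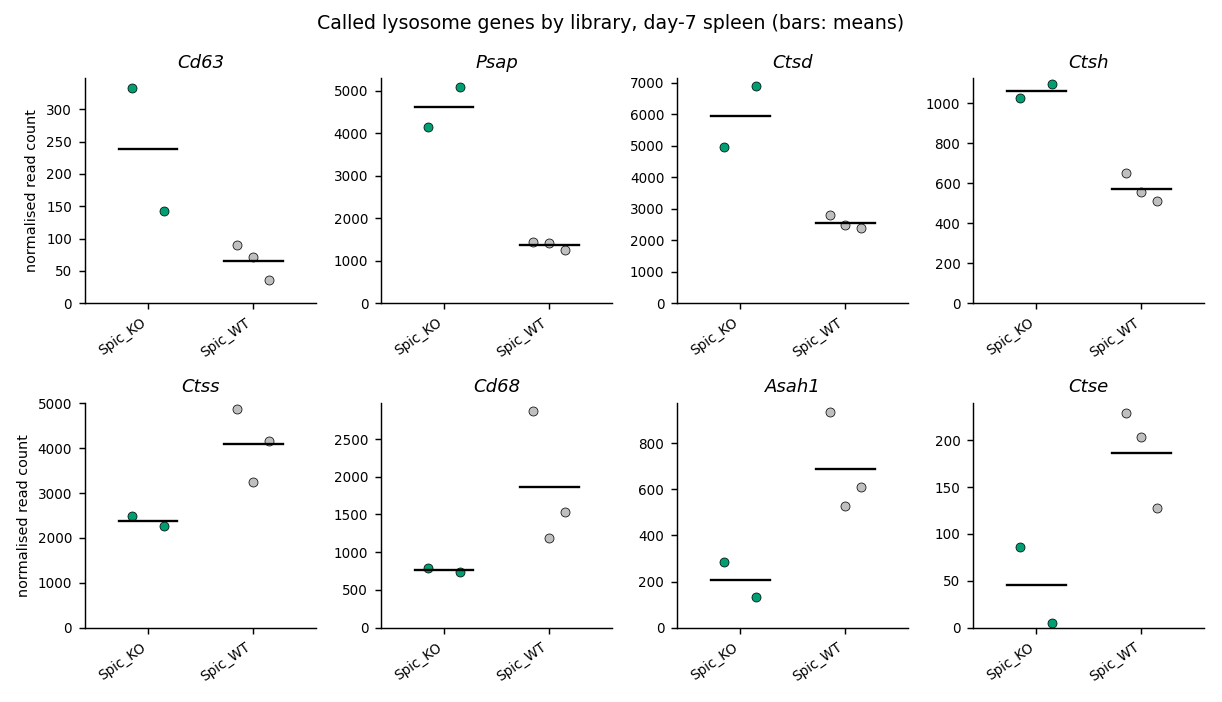
Normalised read counts (y axis, from 0) of the 8 lysosome genes called between the libraries labelled Spic_KO (2 points) and Spic_WT (3 points), day-7 spleen (x axis), with bars at means. In the top row (Cd63, Psap, Ctsd, Ctsh) both Spic_KO points are above the Spic_WT points, and in the bottom row (Ctss, Cd68, Asah1, Ctse) both are below.

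In adult spleen, CreERT2 libraries were compared with WT libraries. Of the 40 genes tested, 1 rose and 0 fell, with 0.0601% of all genes rising and 0.0841% falling; limma gave 1 fall at an unadjusted p under 0.05, and edgeR and DESeq2 called 0. Grn was at 4057, 4673, 3912 and 4971 in adult CreERT2 libraries, against 1716 and 2833 in adult WT libraries, without overlap, a log2 change of 0.99 (SE 0.19, adjusted p = 0.0432). Of 20 alternatives, 5 kept this call, which was lost with no filter on low values (adjusted p 0.128), a filter at 10 (0.0601), a pseudocount of 5 (0.0887), library weights (0.0777), edgeR with TMM factors (0.17) or edgeR with RLE factors (0.0839). It was also lost without RPM_d7_Spic_WT replicate 1 (adjusted p 0.0671), 2 (0.0845) or 3 (0.0914), RPM_d7_Spic_KO replicate 1 (0.0551), RPM_TAM_WT replicate 1 (0.663) or RPM_TAM_CreERT2 replicate 1 (0.119), 2 (0.0967), 4 (0.068) or 5 (0.196), and the change without RPM_TAM_WT replicate 1 was 0.63. Scarb2, named after its values were seen, was at 527, 771, 372 and 568 in adult CreERT2 libraries and 186 and 223 in adult WT libraries, without overlap but not called (1.41, adjusted p = 0.0617). The other 38 genes had log2 changes from -1.15 to 1.29, and the 40 genes had a median of 0.23. Of the 99 other lysosomal genes tested, limma called 0, with 10 rises and 4 falls at an unadjusted p under 0.05, edgeR called 0 and DESeq2 called 1 fall. Erythroid markers summed to 12.7 to 20.8% in adult CreERT2 libraries and 7.55 to 11.1% in adult WT libraries, with 2 of 12 that rose. Macrophage markers summed to 1.09 to 1.25% in adult CreERT2 libraries and 0.786 to 1.06% in adult WT libraries, higher in each CreERT2 library, and 0 of 10 was called by limma. Red pulp and island markers summed to 1.05 to 1.28% in adult CreERT2 libraries and 1.27 to 1.57% in adult WT libraries, with 1 of 8 that fell. B cell markers summed to 0.0218 to 0.0304% in adult CreERT2 libraries and 0.0559 to 0.0565% in adult WT libraries. Monocyte markers summed to 0.0182 to 0.0338% in adult CreERT2 libraries and 0.0381 to 0.0383% in adult WT libraries, and dendritic cell markers to 0.012 to 0.017% in adult CreERT2 libraries and 0.019 to 0.0323% in adult WT libraries. These last 3 sums were lower in each CreERT2 library, and no single marker of the 3 lists was called. The sums of the neutrophil, osteoclast, T and NK cell, megakaryocyte and proliferation lists overlapped between the groups. The part of these cells in the result was not tested.

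WT spleen macrophages of adults were set against those of day-7 Spic_WT pups, the only comparison of ages within a table. These groups also differ in the TAM label, so age and that label cannot be told apart, and both controls were used in the 2 comparisons above. Of the 40 genes, 0 rose and 10 fell, with 1.56% of all genes rising and 1.86% falling. Limma gave 2 rises at an unadjusted p under 0.05, edgeR called 0 rises with TMM and 1 with RLE factors, and DESeq2 called 2. Over all genes DESeq2 put 760 of 1269 calls on the rising side and edgeR with RLE factors 450 of 725, against 260 of 569 with limma. Lamp1 was at 665 and 917 in adult WT libraries and 2330, 2018 and 2209 in day-7 Spic_WT libraries, a log2 change of -1.48 (SE 0.23, adjusted p = 0.000729). Ctsz was at 415 and 766 in adult WT libraries and 1652, 1487 and 1414 in day-7 Spic_WT libraries (-1.42, adjusted p = 0.00346). Ctsc was at 647 and 1389 in adult WT libraries and 2926, 1911 and 2506 in day-7 Spic_WT libraries (-1.35, adjusted p = 0.00697). Adult values of these 3 genes lay below all day-7 values. The other 7 that fell were Asah1, Ctsa, Ctsl, Hexa, Man2b1, Ctsd and Ctss, by log2 changes from -2.01 to -0.77. Psap had a positive estimate, at 1952 and 2395 in adult WT libraries and 1436, 1407 and 1252 in day-7 Spic_WT libraries (0.67, adjusted p = 0.0579).

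The count of 10 was 0 without RPM_TAM_WT replicate 1 and 5 without RPM_d7_Spic_WT replicate 1. Without RPM_TAM_WT replicate 1 the adjusted p was 0.065 for Lamp1, 0.192 for Ctsz and 0.371 for Ctsc, and with the compared groups only it was 0.0549 for Lamp1, 0.117 for Ctsz and 0.195 for Ctsc. In adult WT libraries the 10 most abundant genes held 23.6% of the signal, led by Lars2 at 8.57 and 12.1%, and in day-7 Spic_WT libraries they held 11.8 to 14.4%. The 10 macrophage markers summed to 0.786 to 1.06% in adult WT libraries and 1.31 to 1.76% in day-7 Spic_WT libraries, with 4 that fell, erythroid markers to 7.55 to 11.1% in adult WT libraries and 5.21 to 7.37% in day-7 Spic_WT libraries, and monocyte markers to 0.0381 to 0.0383% in adult WT libraries and 0.00243 to 0.00739% in day-7 Spic_WT libraries, with 2 of 6 that rose. Dendritic cell markers summed to 0.019 to 0.0323% in adult WT libraries and 0.00269 to 0.00668% in day-7 Spic_WT libraries, with 1 of 7 that rose, and B cell markers to 0.0559 to 0.0565% in adult WT libraries and 0.0314 to 0.0415% in day-7 Spic_WT libraries, with 3 of 7 that rose. T and NK cell markers summed to 0.00304 to 0.00457% in adult WT libraries and 9.54e-05 to 0.000536% in day-7 Spic_WT libraries, with 1 of 6 tested that rose. Proliferation markers summed to 0.0403 to 0.0743% in adult WT libraries and 0.0813 to 0.11% in day-7 Spic_WT libraries, lower in both adult libraries with no single marker called. The part of these differences in the lower lysosomal values was not tested.

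**Figure D4:**
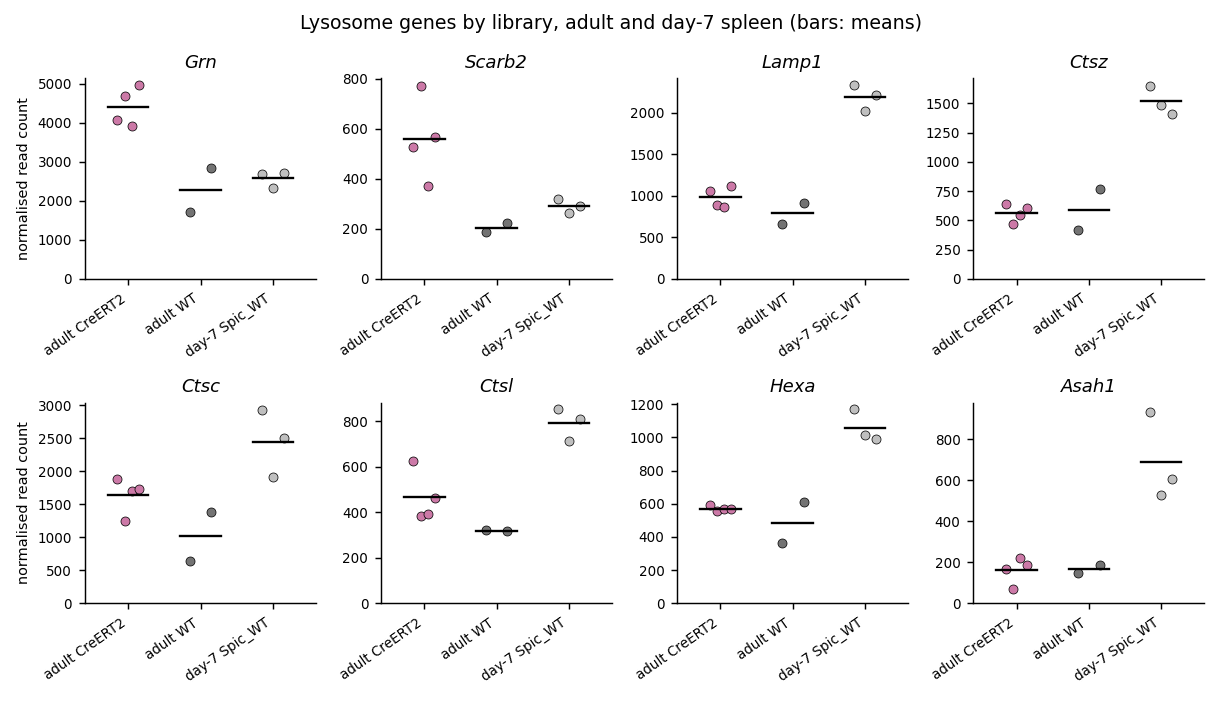
Normalised read counts (y axis, from 0) of 8 lysosome genes in adult CreERT2 (4 points), adult WT (2 points) and day-7 Spic_WT (3 points) spleen libraries (x axis), with bars at means. Grn and Scarb2 are higher in each adult CreERT2 library than in the adult WT libraries, and the other 6 genes are lower in adult WT than in day-7 Spic_WT libraries.

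Per kb of exon, the ranking of the genes was led in day-7 spleen by Ctss and Cd68 in both vavCre and WT libraries, with mean normalised counts per kb of 18785 and 18104 in vavCre libraries and 17602 and 15099 in WT libraries. Gla, Ctsk and Atp6v0d2 had 68.0, 3.68 and 0.0974 per kb in vavCre libraries and 19.2, 0.77 and 2.41 in WT libraries, the lowest in WT. In adult WT spleen Ctsb and Ctss led, at 1790 and 1757 per kb in that table. Levels of Ctsa, Ctsb, Ctsd, Ctsl, Ctsz, Lamp1, Grn, Hexa, Glb1, Npc1 and Atp6v1h are less certain, since their exons overlap those of a neighbouring or antisense gene and no source says that reads were counted by strand.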

How the data were processed

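Messenger RNA of 23 libraries in 8 groups had been sequenced after capture on oligo-dT and Nextera XT preparation of sorted cells, per the labels' protocols. The submitters' processing notes list the aligner STAR, edgeR and the build GRCm38 and give no tool version. The deposited values are signal, read as normalised read counts from the values themselves: within a library, values up to 500 reads are whole multiples of 1 value per read, within 0.1 read for 96.6 to 100% of them. Whole reads were recovered from these steps and gave the depths; the 2 deposited tables were scaled separately.

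The main test was limma-trend with robust variance (limma 3.58.1, R 4.3.3) on log2(value + 1). It used genes at 1 or more in at least 2 libraries, all libraries of a table in 1 fit (residual degrees of freedom 8 and 7), with p-values adjusted by Benjamini-Hochberg over all genes tested, a difference called at an adjusted p under 0.05. The fit was also run on simulated reads, with changes planted only in genes above a minimum mean count, so genes near 0 were not covered. Alternatives were another filter or pseudocount, a minimum log2 change of 1, the compared groups only, library weights, edgeR 4.0.16 and DESeq2 1.42.0 on recovered reads, a replicate block, and each library left out; gene by gene, they were examined for the 41 lysosome genes only. Same-numbered libraries did not deviate together (correlations from -0.05 to 0.07), so no block entered the main test. Genes with values in the text were the 3 of smallest p in each role and vavCre comparison, those called in comparisons with few calls, and the leading ones elsewhere. The members and lists were chosen with earlier results of these data known. Exons and coordinates are from the GRCm38 annotation (GENCODE vM21); for Acp5, listed more than once, the higher row was used. Sums over marker lists are shares of a library's signal.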

Additional observations from a re-analysis of the deposited data

Results flagged for a closer look

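The vavCre change of Cd63 differed between tissues by 1.32 on the log2 scale (interaction, limma adjusted p = 0.0098), and no other of the 41 genes passed that test. Among the groups of 4, highest and lowest values were tested for 40 genes against Dixon's critical value, which chance passes in about 1 of 20 groups, and 2 genes passed it in adult CreERT2 spleen. Ctsk was at 6.42 in 1 library and listed at 0 in the other 3. Smpd1, for acid sphingomyelinase, was at 113.6 in 1 library, and at 53.2, 42.3 and 43.7 in the other 3.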

How the results depend on the processing

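No direction of a called lysosome gene reversed under any alternative. Among the 41 genes, 7 of the 16 splenic vavCre calls, 10 of the 14 marrow calls and the 1 interaction call held with each library left out, as did 1 of the 8 Spic_KO calls and none of the 10 age calls. With a library left out, the count of called genes ran from 7 to 18 in vavCre spleen, 11 to 15 in vavCre marrow, 3 to 8 between WT tissues, 2 to 11 between vavCre tissues, 2 to 9 for Spic_KO, 0 to 2 for CreERT2 and 0 to 11 for age. Requiring an absolute log2 change of at least 1 left 5 genes in vavCre spleen, 5 in vavCre marrow, 1 between WT tissues, 1 between vavCre tissues and 0 for CreERT2. Fitting the compared groups only left 2 between WT tissues, 1 for Spic_KO and 2 for age. For Spic_KO the count of 8 was 5 with no filter, 4 with a pseudocount of 5 and 4 with library weights. For CreERT2 the count of 1 was 0 with no filter, a pseudocount of 5, library weights or edgeR with TMM factors, and 2 with DESeq2. With a replicate block on all 12 libraries of the first table, 12 genes were called in vavCre spleen, 13 in vavCre marrow, 1 in the interaction, 8 between WT tissues and 8 between vavCre tissues. The Spic_KO block was fitted on its 2 libraries and the 3 Spic_WT libraries alone and called 0 genes, with no gene of the table called. That fit leaves few residual degrees of freedom, so its 0 cannot be set beside the other counts. No block was fitted for CreERT2, whose groups share 1 number, nor for age. The cause of these differences was not tested.

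Over all genes, DESeq2 called 1290 against 835 for limma in vavCre spleen, 101 against 18 in the interaction, 966 against 588 between WT tissues, 963 against 529 between vavCre tissues, 1736 against 658 for Spic_KO, 137 against 24 for CreERT2 and 1269 against 569 for age. Library weights gave 1488 in vavCre spleen, 964 between WT tissues, 414 for Spic_KO and 1255 for age. The compared groups alone gave 584 against 1182 in vavCre marrow, 319 between vavCre tissues and 425 for Spic_KO. The interaction gave 31 with edgeR and 11 with no filter, and CreERT2 gave 5 with no filter, 14 with a pseudocount of 0.1 and 9 with one of 5. For Spic_KO, edgeR with RLE factors called 1035 genes. Rising genes were 655 of those 1035 and 932 of 1736 with DESeq2, against 245 of 658 with limma; for age they were 760 of 1269 with DESeq2 and 450 of 725 with RLE factors, against 260 of 569. In CreERT2, DESeq2 moved the median of all genes by 0.11. Depth was lowest in the adult comparisons, at 692904 to 1668714 reads per CreERT2 library and 1901916 to 4243384 per adult WT library, and genes such as Ctsk and Atp6v0d2 were near 0 in most libraries.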
